A study of Mus musculus with 18 samples.

Results

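Complement genes were followed in the livers of mice after bile duct ligation (BDL), an operation that blocks bile flow, and after sham surgery (Sham). The set holds 32 genes, taken by symbol from a deposited table of 54532 genes: 7 of the classical pathway, 4 of the lectin pathway, 4 of the alternative pathway with C3, 6 of the terminal pathway, 5 inhibitors and 6 receptors. All 32 were in the table, and each reached an FPKM (fragments per kilobase of transcript, divided by a size factor of each library) of at least 1 in at least 1 library. RNA came from 3 preparations of liver cells. MPH are primary hepatocytes, BECs are the epithelial cells of the bile ducts, and Kupffer stands for Kupffer-like cells, after the resident macrophages of the liver. Each preparation was made from Sham and from BDL mice, which gave 6 groups of 3 libraries and 18 libraries in all, numbered here 1 to 3 within a group in the order of deposition. No allele, transgene or drug is named in the labels, and the sources used here give no strain, age, sex, time after ligation or way of purifying the cells. The labels do not say whether the 3 libraries of a group came from separate mice, so each p-value measures only the spread between these libraries.

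Complement is a cascade of blood proteins, most of them made by hepatocytes. C1q on antibody (classical pathway) or mannose-binding lectin on sugars (lectin pathway) switches on serine proteases that cut C4 and C2, while the alternative pathway amplifies the cutting of C3. Active C3 marks targets for uptake and leads to the cutting of C5, which releases the attractant C5a and starts the pore of the terminal pathway. Macrophages are a main source of C1q and are among the sources of properdin. Myeloid cells carry the receptors for the released fragments and for C3-coated particles.

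Between BDL and Sham, 9 genes passed the test in at least 1 cell type, and RefSeq (GRCm38.p6) gave a start site for 7 of them (2 for C8g, of which the one nearest the annotated start is shown). Their upstream sequence is shown because it lies next to the genes that changed, as the 250 bases before the start, 5′ to 3′ on the gene's strand, in lower case with motif matches in capitals. The intervals are chr7:16259339-16259588 (minus strand) for C5ar1, chr7:128062390-128062639 (plus) for Itgam, chr4:148602294-148602543 (plus) for Masp2, chr14:41151206-41151455 (plus) for Mbl1, chr19:30232678-30232927 (plus) for Mbl2, chr2:25501720-25501969 (minus) for C8g and chr1:130661619-130661868 (minus) for C4bp.
C5ar1: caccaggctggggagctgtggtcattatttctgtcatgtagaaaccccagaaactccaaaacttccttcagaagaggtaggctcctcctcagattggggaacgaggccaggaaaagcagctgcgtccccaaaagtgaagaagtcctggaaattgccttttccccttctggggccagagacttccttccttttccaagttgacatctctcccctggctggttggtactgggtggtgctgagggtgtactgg
Itgam: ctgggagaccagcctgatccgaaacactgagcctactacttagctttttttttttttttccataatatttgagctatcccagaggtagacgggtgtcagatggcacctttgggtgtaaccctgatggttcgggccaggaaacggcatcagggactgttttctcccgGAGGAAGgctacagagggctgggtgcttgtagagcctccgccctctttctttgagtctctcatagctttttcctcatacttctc
Masp2: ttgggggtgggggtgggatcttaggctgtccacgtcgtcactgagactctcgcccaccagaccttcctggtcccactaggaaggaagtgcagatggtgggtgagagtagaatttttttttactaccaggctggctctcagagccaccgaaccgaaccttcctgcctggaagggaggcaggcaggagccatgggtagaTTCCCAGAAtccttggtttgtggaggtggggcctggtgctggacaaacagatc
Mbl1: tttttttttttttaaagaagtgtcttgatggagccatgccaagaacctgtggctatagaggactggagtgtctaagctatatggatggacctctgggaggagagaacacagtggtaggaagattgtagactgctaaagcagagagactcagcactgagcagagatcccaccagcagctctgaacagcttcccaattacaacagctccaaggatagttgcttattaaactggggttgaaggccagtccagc
Mbl2: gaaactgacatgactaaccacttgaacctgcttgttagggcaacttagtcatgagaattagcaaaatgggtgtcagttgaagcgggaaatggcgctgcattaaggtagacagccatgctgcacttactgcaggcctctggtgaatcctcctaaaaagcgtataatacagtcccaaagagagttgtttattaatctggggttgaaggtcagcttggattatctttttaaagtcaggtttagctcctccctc
C8g: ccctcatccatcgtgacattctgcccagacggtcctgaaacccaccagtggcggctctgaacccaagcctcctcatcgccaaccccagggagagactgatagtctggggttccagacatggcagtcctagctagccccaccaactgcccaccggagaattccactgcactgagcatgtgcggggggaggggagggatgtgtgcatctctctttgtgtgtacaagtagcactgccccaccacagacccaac
C4bp: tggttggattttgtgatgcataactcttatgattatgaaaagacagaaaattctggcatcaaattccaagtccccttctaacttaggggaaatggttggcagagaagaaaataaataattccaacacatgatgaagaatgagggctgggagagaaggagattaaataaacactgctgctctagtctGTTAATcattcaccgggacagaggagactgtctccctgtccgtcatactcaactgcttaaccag

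The motifs searched, on both strands of 300 bases that also held the first 50 after the start, were the PU.1 core GAGGAAG, the STAT site TTCNNNGAA, the C/EBP site TTGCNNAA and 1 arm of the HNF1 site, GTTAAT. Matches to different motifs did not overlap in the windows shown. Itgam had 2 PU.1 cores, at position -84 and at position 31 past the start, outside the printed stretch. Masp2 had a STAT site at -53 and C4bp an HNF1 arm at -64, while the windows of C5ar1, Mbl1, Mbl2 and C8g held none of the 4. Over the 27 start sites listed for 24 of the 32 genes, 7 held the HNF1 arm (25.9%, against 7.10% of all 32851 promoters): C1ra, C4bp, C8a, C8b, Cd55, Cfp and Hc. The PU.1 core was in 3 of 27 (13.6% of all promoters), the STAT site in 3 (8.30%) and the C/EBP site in 5 (10.8%). A match describes letters in these windows and does not show that a factor binds there.

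The libraries held 15451625 to 20577889 reads in genes, as recovered from the deposited values. The FPKM were not in proportion to those reads: the library size they imply was 0.5166 to 0.7412 of the reads in MPH and 0.9343 to 1.2217 in BECs and Kupffer, so levels set across cell types carry that scale. Defining markers set the preparations apart in part. The summed FPKM of 8 biliary markers was 2609 to 3965 in BECs, 20.61 to 71.38 in MPH and 62.71 to 145.6 in Kupffer. The sum of 10 hepatocyte markers was 42229 to 113371 in MPH, at most 3745 in BECs and at most 3937 in Kupffer. Kupffer cell markers, 8 genes, summed to 4324 to 5414 in Kupffer Sham, but also to 1332 to 4979 in MPH Sham and 882.4 to 3606 in MPH BDL, so the MPH libraries held RNA of macrophage genes. Kupffer BDL 3 stood apart: its Kupffer cell marker sum was 1762, against 9668 and 6520 in Kupffer BDL 1 and 2, and its neutrophil marker sum was 2285, against 883.2 and 825.2. In such bulk samples, fewer cells of a type and less RNA per cell cannot be told apart.

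In Sham livers most RNAs of secreted complement proteins were highest in the hepatocyte preparation, and those of all 6 receptors in the Kupffer preparation. By mean FPKM on the deposited scale, 21 genes were highest in MPH, 11 in Kupffer and 0 in BECs. The 21 include near-ties with Kupffer: Masp1 (24.48 against 22.59), C6 (124.0 against 116.0) and Cfd (0.1674 against 0.1656, too low to test). The most abundant complement RNA in MPH was C3, on which all pathways converge, with 2267, 2377 and 3323 FPKM in the 3 Sham libraries. BECs had 526.0, 551.7 and 798.1 FPKM of C3 and Kupffer 87.92, 76.06 and 75.87, and the 3 cell types did not overlap. Over 6 libraries, C3 (3931), C1qb (949.1) and C1qa (870.0) had the highest mean FPKM in MPH, C3 (655.1), Serping1 (187.8) and C1qb (158.9) in BECs, and C1qb (1849), C1qa (1757) and C1qc (924.8) in Kupffer.

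**Figure D1:**
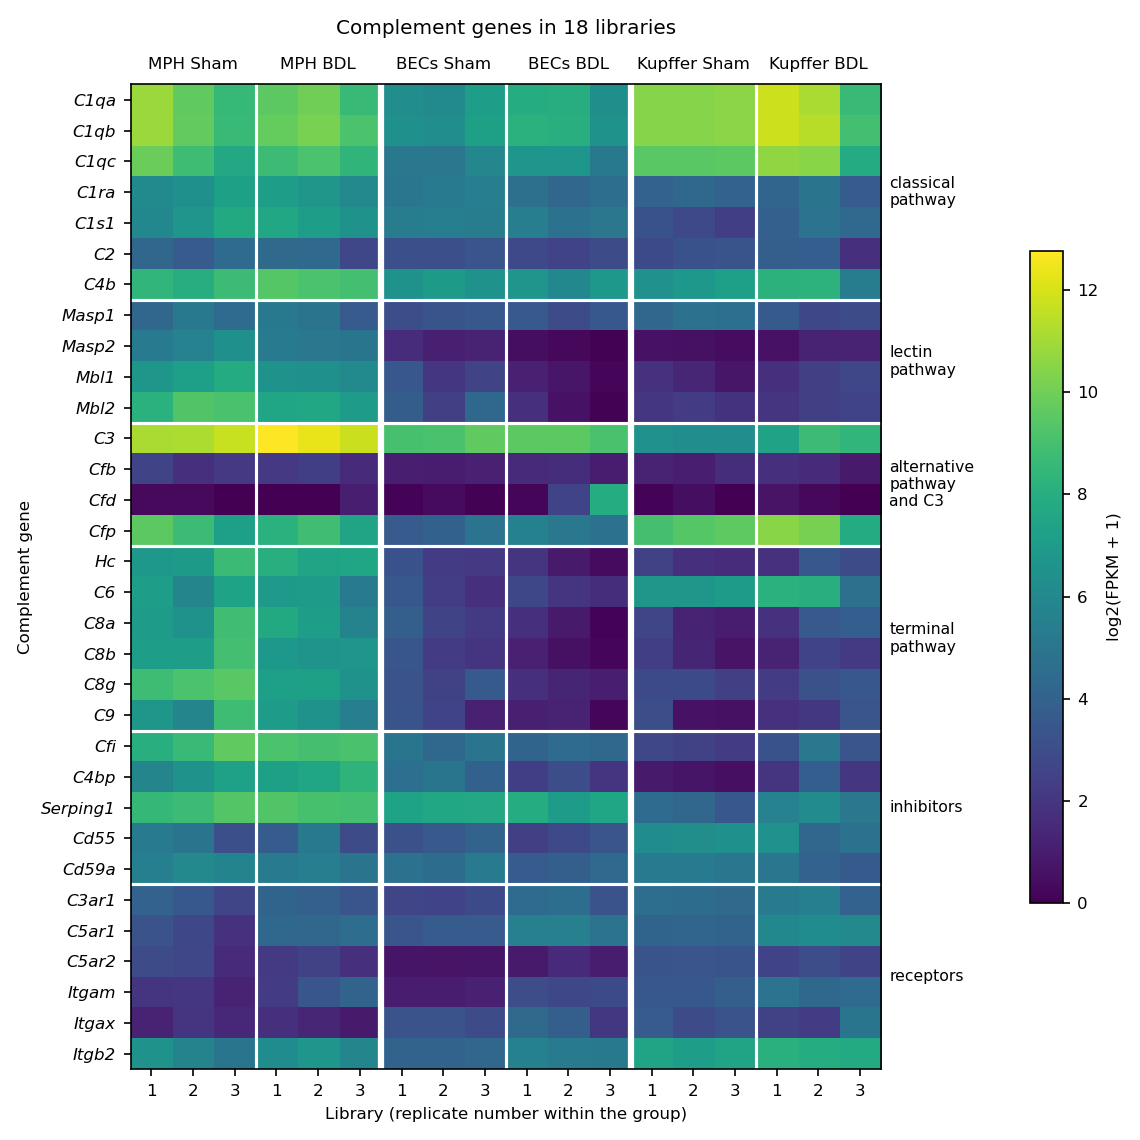
Level of each of the 32 complement genes (rows, grouped by role) in each of the 18 libraries (columns, 3 per group), as log2(FPKM + 1) on a colour scale that starts at 0. Most lectin and terminal genes are brighter in the MPH columns than in the others, while Masp1 and C6 are similar in MPH Sham and Kupffer Sham. The receptors are highest in Kupffer by group mean, though all but Itgb2 stay at or below 72.22 FPKM there. Kupffer BDL 3 is darker for the C1q chains (C1qa 399.2 FPKM) than Kupffer BDL 1 and 2.

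Tested with limma on log2(FPKM + 1) over the 9 Sham libraries (31 genes tested, Cfd too low), 27 complement genes were higher and 2 lower in MPH than in BECs at a Benjamini-Hochberg adjusted p under 0.05. Over all 14466 genes tested, 30.0% were called higher and 28.3% lower. C5ar1 (-0.96 ± 0.32, SE, as a difference of log2 values) and Itgax (-1.59 ± 0.24) were the 2 genes lower in MPH, and C5ar1 lost its call without BECs Sham 2 or BECs Sham 3 (adjusted p up to 0.0862). Against Kupffer, 17 were higher and 7 lower in MPH (28.7% and 28.1% of all genes). The 7 lower genes were all 6 receptors and Cd55, which shields the cell surface from complement, and C5ar2 lost its call without Kupffer Sham 1, 2 or 3 (adjusted p up to 0.0752). BECs against Kupffer gave 9 higher and 11 lower (23.9% and 20.0% of all genes). The scale matters here: with all libraries set to a common FPKM sum, the median of all genes moved to -0.833 for MPH against BECs and -0.909 for MPH against Kupffer, and the calls became 17 higher and 2 lower, and 14 higher and 14 lower. On recovered reads the medians were -0.540 and -0.653 and the calls 19 and 2, and 15 and 12. C1qa, C1qb, C1qc, Cfp and Masp1 were called lower in MPH than in Kupffer on both of these scales, and on the common sum C2 turned to -0.15 against BECs and -0.16 against Kupffer, Cd59a to -0.24 against BECs and Cfb to -0.01 against Kupffer.

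Within the secreted genes the cell types differed by degree. Among the largest gaps were those of lectin and terminal genes. C8g, the gamma chain of the pore protein C8, had 452.6, 575.8 and 727.6 FPKM in MPH Sham, 8.635, 4.663 and 11.14 in BECs and 6.314, 6.284 and 4.305 in Kupffer. Mbl2, a mannose-binding lectin, had 287.4, 638.5 and 559.4 in the MPH libraries, 12.58, 4.393 and 18.34 in those of BECs and 3.019, 3.865 and 2.649 in those of Kupffer. Both were over 100 FPKM in all MPH Sham libraries and under 20 elsewhere. The 10 hepatocyte markers reached 1.77% to 15.9% of their MPH level in BECs (median 3.62%), and secreted genes with shares within that range or below it included C8g 1.39%, C8b 2.11%, Hc 2.35%, Mbl2 2.38%, C9 2.53%, Masp2 2.71%, C8a 3.22%, Mbl1 3.82% and Cfi 5.35%. Another group exceeded every hepatocyte marker: C4bp had 22.9%, C3 23.5%, C4b 29.9%, C1s1 32.7%, Masp1 36.6%, C1ra 36.7%, Serping1 39.6% and C2 49.2% of the MPH level. In Kupffer, where hepatocyte markers were at 0.709% to 2.97% of MPH, C6 stood at 93.5%, Masp1 at 92.3%, C2 at 46.8% and C4b at 33.9%. C6, a pore protein, had 143.2, 57.08 and 171.7 FPKM in MPH Sham and 108.6, 106.5 and 132.9 in Kupffer Sham, against 10.61, 4.068 and 2.324 in BECs, so MPH and Kupffer overlapped and BECs lay below both.

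After BDL, few complement genes passed the test and they differed by cell type. In MPH 0 rose and 1 fell of 31 tested, against 0.714% of 12323 genes called higher and 0.860% called lower. In BECs 3 rose and 5 fell of 30 tested, against 2.96% higher and 4.70% lower of 13573 genes; of the 5, Masp2 entered the test only through its Sham libraries. In Kupffer 1 rose and 1 fell of 30 tested, against 1.47% higher and 2.40% lower of 12748 genes. Of those 30, C4bp entered the test only through its BDL libraries. Medians of the log2 difference over the tested members were -0.18 in MPH, -0.35 in BECs and 0.35 in Kupffer, beside -0.06, -0.03 and 0.03 over all genes. Sham and BDL did not overlap for 4 higher and 6 lower genes in MPH (30.2% of all genes did not overlap in either direction), for 4 and 11 in BECs (31.8%) and for 8 and 3 in Kupffer (32.3%). At an unadjusted p under 0.05 there were 8 members in MPH, 17 in BECs and 12 in Kupffer, beside 2791 of 12323, 3526 of 13573 and 3070 of 12748 genes, so the MPH count was near that of all genes.

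**Figure D2:**
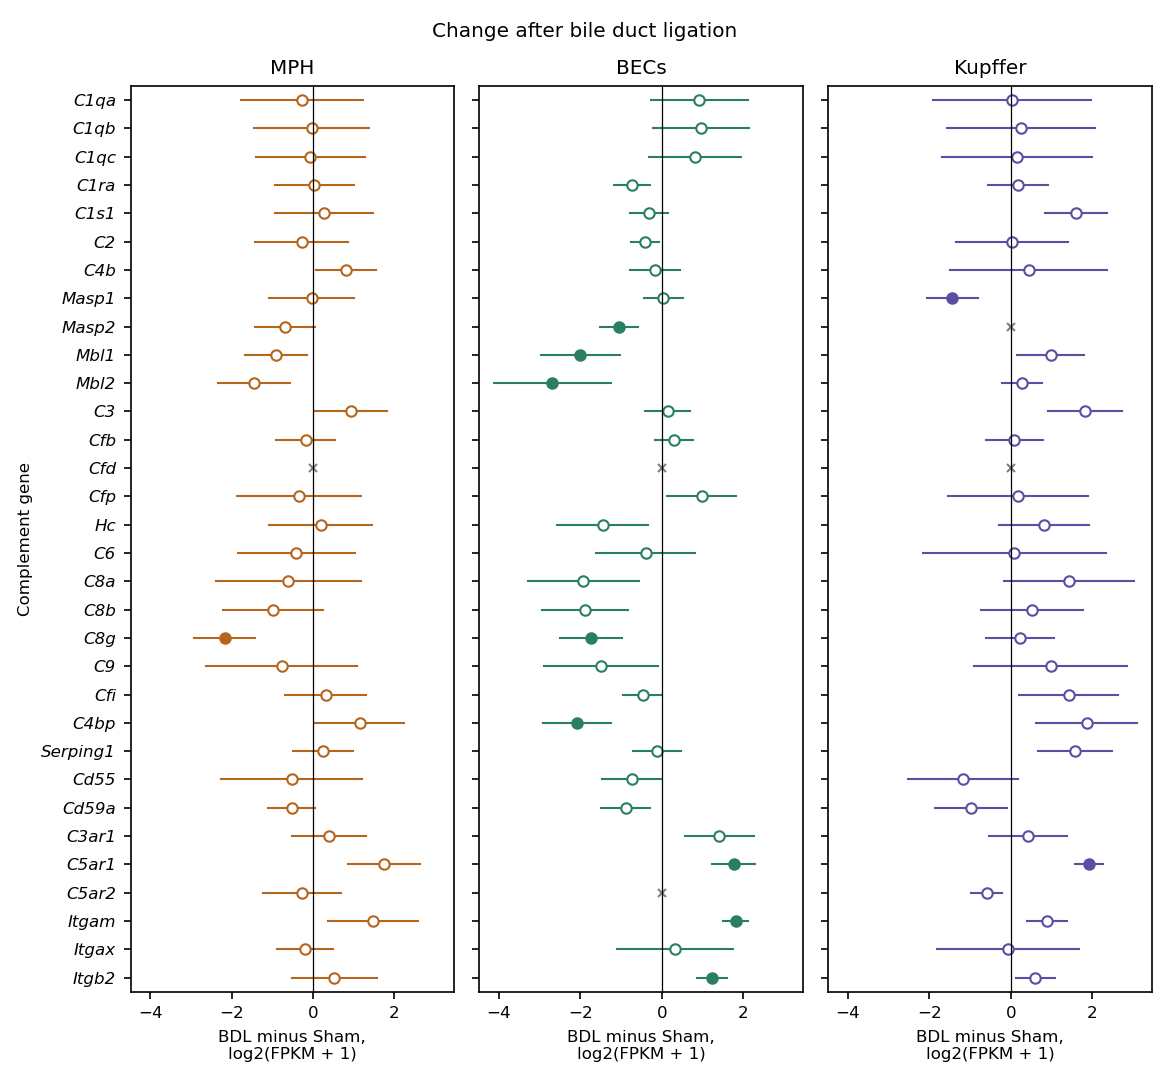
Difference between BDL and Sham in log2(FPKM + 1) for each complement gene, 1 panel per cell type. Points are limma estimates from 3 against 3 libraries with 95% confidence intervals; filled points passed an adjusted p under 0.05 and grey crosses mark genes too low to test. Filled points are C8g in MPH, 3 receptors above 0 and 5 secreted genes below 0 in BECs, and C5ar1 and Masp1 in Kupffer.

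These counts rested on single libraries. In MPH the 1 call was lost without any 1 of the 6 libraries (limma; 4 to 8 members at an unadjusted p under 0.05), where at most 0.646% of all genes were called. In BECs the calls numbered 1 without Sham 1, 6 without Sham 2, 4 without Sham 3, 3 without BDL 1, 4 without BDL 2 and 11 without BDL 3, where 0.652% (Sham 1) to 7.84% (BDL 3) of all genes were called. In Kupffer they numbered 0 without Sham 1, Sham 2, Sham 3 or BDL 2, where 13, 8, 9 and 9 members had an unadjusted p under 0.05 and 0 of all genes were called. They numbered 6 without BDL 1 (4.27% of all genes called) and 15 without BDL 3, the library that stood apart (18.4%). Without the filter on low values, Itgam in BECs was the 1 call left in the 3 cell types, and 0.0679% (MPH), 0.243% (BECs) and 0 of all genes were called. With all 18 libraries in 1 model, which shares the estimate of spread, MPH gave 4 calls (C5ar1 and Itgam higher, C8g and Mbl2 lower), BECs the same 8 and Kupffer 7 (C3, Serping1, Cfi, C4bp, C1s1 and C5ar1 higher, Masp1 lower). In that model 17.5% of all genes were called in MPH, 6.08% in BECs and 9.59% in Kupffer, so the MPH count of 4 of 31 was no larger a share than that of all genes. Of the Kupffer calls in that model, C4bp entered the test only through its BDL libraries. On a common FPKM sum or on recovered reads, Kupffer had 1 higher and 2 lower, with C5ar2 added and the median of all genes at -0.25 and -0.15.

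Among the receptors, C5ar1 rose after BDL in BECs and Kupffer, and its Sham and BDL libraries did not overlap in any of the 3 cell types. C5ar1 (chr7:16246743-16259540, minus strand, GRCm38) encodes the C5a receptor of neutrophils, monocytes and macrophages. In Kupffer Sham its FPKM was 16.49, 17.02 and 15.79, and after BDL 60.37, 72.22 and 63.42, a rise of 1.93 ± 0.14 (SE; adjusted p = 0.0208, limma). In BECs it was 9.151, 12.05 and 11.74 in Sham and 46.09, 47.03 and 28.47 after BDL, a rise of 1.77 ± 0.22 (adjusted p = 0.0125, limma). In MPH it was 8.776, 5.762 and 2.477 in Sham and 18.81, 17.85 and 22.55 after BDL, a difference of 1.75 ± 0.37 that did not pass (adjusted p = 0.073, limma). The differences of the C5ar1 response between cell types were -0.01 (95% interval -1.05 to 1.02) for MPH minus BECs, -0.17 (-1.11 to 0.77) for MPH minus Kupffer and -0.16 (-0.75 to 0.44) for BECs minus Kupffer, so none of the 3 was shown to differ and the intervals were wide. C5ar1 lost its call in BECs without Sham 1 (adjusted p = 0.0616) and without the filter (0.0535), and in Kupffer without the filter (0.116) and without Sham 1, Sham 2, Sham 3 or BDL 2 (0.0873, 0.144, 0.134 and 0.0511, limma), where no gene was called.

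The integrin that binds C3-coated particles on phagocytes has the alpha chain Itgam and the beta chain Itgb2, which also pairs with Itgax. Itgam (chr7:128062640-128118491, plus strand) had 1.012, 1.017 and 1.249 FPKM in BECs Sham and 7.007, 5.759 and 6.358 after BDL, a rise of 1.82 ± 0.13 (adjusted p = 0.0044, limma) that passed with each of the 6 libraries left out and without the filter. Itgb2 (chr10:77530252-77565708, plus strand) had 15.69, 15.91 and 17.46 in BECs Sham and 48.23, 38.04 and 34.59 after BDL, a rise of 1.24 ± 0.16 (adjusted p = 0.0125, limma), lost without Sham 1 (0.0616) and without the filter (0.0535). In neither gene did the BECs groups overlap. In Kupffer, Itgam was 11.5 ± 1.89 FPKM in Sham and 22.5 ± 5.36 after BDL (SD, n = 3) and Itgb2 163 ± 19.7 and 248 ± 26.5, without overlap but also without a call. In MPH, Itgam had 2.903, 3.074 and 1.428 FPKM in Sham and 3.758, 9.535 and 15.58 after BDL, without overlap or a call (1.48, adjusted p = 0.137, limma), while Itgb2 overlapped. Of the exon bases of Itgam, 68.7% are shared with the gene model Gm49368, which was at or below 0.2001 FPKM in every library, and the sources used here do not say how shared bases were counted, so the level of Itgam is uncertain.

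**Figure D3:**
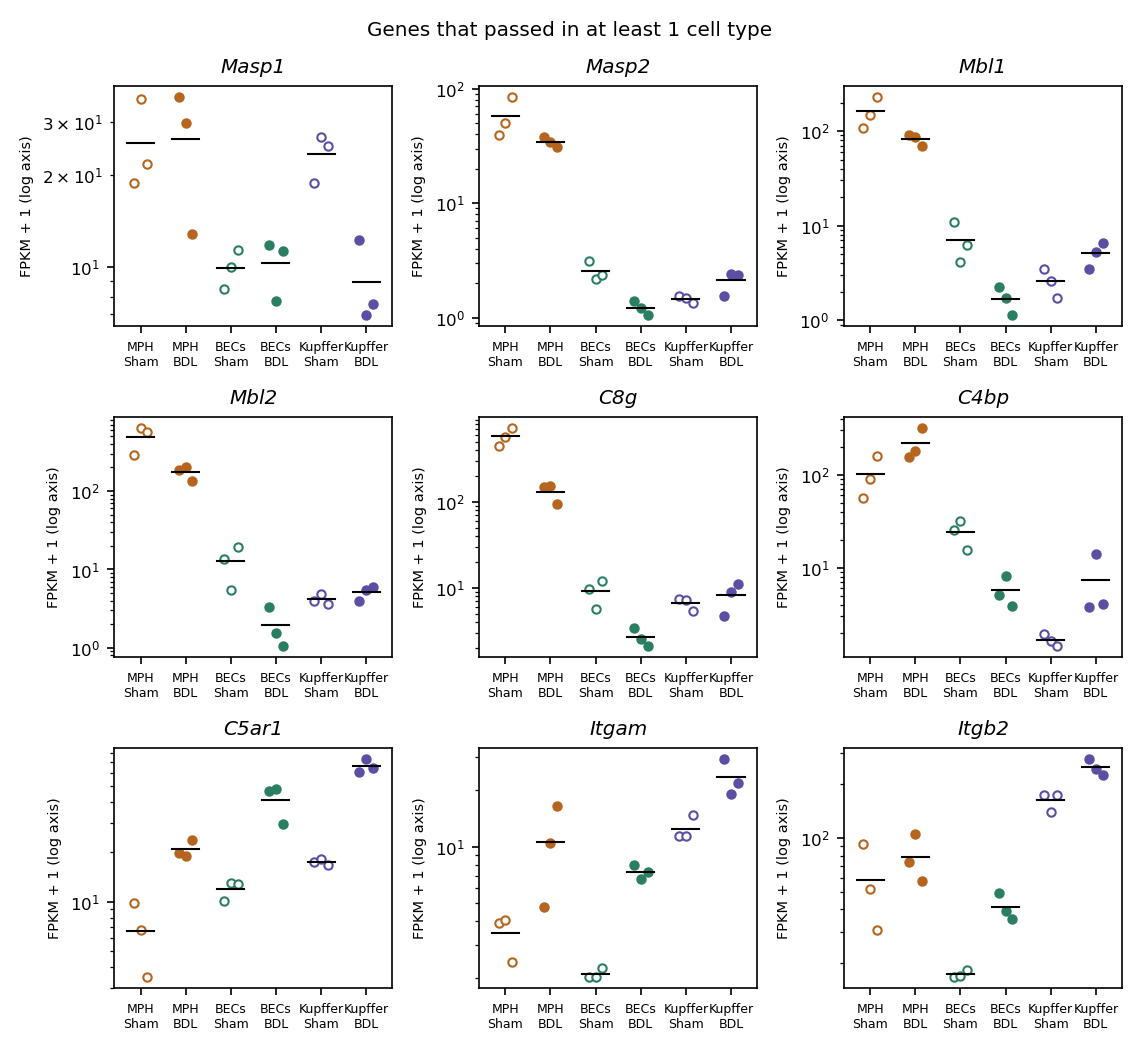
FPKM + 1 (log axis) of the 9 complement genes that passed between BDL and Sham in at least 1 cell type, by group. Open circles are Sham and filled circles BDL libraries, and black lines are group means. C5ar1 is higher in the BDL libraries of all 3 cell types, while C8g is lower after BDL in MPH and BECs and overlaps in Kupffer.

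The other receptors did not pass. C3ar1, the receptor for the C3 fragment C3a, had 5.264, 4.967 and 6.390 FPKM in BECs Sham and 20.81, 23.94 and 8.617 after BDL, without overlap (1.41, adjusted p = 0.0612, limma), and it passed without BECs BDL 3 (1.84, adjusted p = 0.0052). C5ar2, the second C5a receptor, differed from C5ar1 in direction: in Kupffer it was 9.042, 9.156 and 8.899 in Sham and 4.894, 7.055 and 5.189 after BDL (-0.59, adjusted p = 0.0846). Itgax had 29.90 FPKM in Kupffer BDL 3, against 4.757 and 3.706 in Kupffer BDL 1 and 2 and 11.72, 6.778 and 8.625 in Sham. The summed neutrophil and monocyte markers were higher after BDL in each cell type. The summed FPKM of 6 neutrophil markers was 32.41 to 109.9 in BECs Sham and 298.1 to 455.2 after BDL, 288.9 to 299.0 and 825.2 to 2285 in Kupffer, and 27.66 to 106.9 and 107.2 to 259.4 in MPH. Of the 6 neutrophil markers, 5 rose in BECs, 3 in Kupffer and 0 in MPH. Of the monocyte markers, 2 of 6 tested rose in BECs, 2 of 6 in Kupffer and 2 of 4 in MPH. Over all genes, 2.96% were called higher in BECs, 1.47% in Kupffer and 0.714% in MPH. By library the order differed between receptors and cell types. BECs BDL 3 had the highest neutrophil and monocyte sums of its group (455.2 and 258.8 FPKM). It also had the lowest C5ar1 (28.47), C3ar1, Itgax (3.158) and Itgb2 (34.59) of that group, while Itgam (6.358) and C5ar2 (0.9831) lay between. MPH BDL 3 had the highest such sums of its group (259.4 and 180.9), with the highest C5ar1 (22.55) and Itgam (15.58). Its C3ar1 (9.156), C5ar2 (2.329), Itgax (0.9118) and Itgb2 (56.45) were the lowest of that group. The part of neutrophils and monocytes in the receptor changes was not tested.

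In the lectin pathway, mannose-binding lectins fell in BECs. Mbl2 (chr19:30232942-30239687, plus strand) had 12.58, 4.393 and 18.34 FPKM in BECs Sham and 2.280, 0.5475 and 0.04416 after BDL, and it fell by 2.69 ± 0.59 (adjusted p = 0.0472, limma). Mbl1 (chr14:41151458-41159601, plus strand) had 10.04, 3.109 and 5.163 in Sham and 1.217, 0.7329 and 0.1239 after BDL, and it fell by 2.01 ± 0.41 (adjusted p = 0.0366, limma). Masp2 (chr4:148602554-148615499, plus strand), the protease that cuts C4 and C2, had 2.117, 1.176 and 1.344 in Sham and 0.3961, 0.2154 and 0.04411 after BDL, a difference of -1.05 ± 0.20 (adjusted p = 0.0304, limma). Masp2 reached 1 FPKM in its Sham libraries alone, and had to be lower after BDL to be tested at all, so its difference is a description; Mbl1 and Mbl2 reached 1 FPKM in 3 Sham libraries and 1 BDL library. All 3 genes had every BDL library below every Sham library. Of the fits without 1 library, Mbl1 and Mbl2 kept their call without Sham 2 (adjusted p = 0.0406 and 0.0432), with 0.0557 to 0.0981 and 0.0513 to 0.158 without Sham 1, Sham 3, BDL 1, BDL 2 or BDL 3. Masp2 passed without BDL 3 (0.0462), did not without BDL 1 (0.0628) or BDL 2 (0.0747), and was too low to test without a Sham library. At an offset of 0.1 Mbl1, Mbl2 and Masp2 lost their calls (adjusted p = 0.0532, 0.0768 and 0.0532), as they did without the filter (0.114, 0.126 and 0.0964), and Mbl2 also on recovered reads (0.0541). Of its exon bases, 54.9% lie opposite Tardbp, at 7.479 to 20.13 FPKM, and no source used here says whether counting used strand, so the level of Masp2 is uncertain.

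In MPH the same 3 lectin genes had lower values after BDL without overlap and without a call. Mbl2 had 287.4, 638.5 and 559.4 FPKM in Sham and 184.4, 200 and 134.5 after BDL (-1.45, adjusted p = 0.0912, limma). Mbl1 was 160 ± 62.5 and 81.3 ± 11.0 FPKM (SD, n = 3) and Masp2 57.1 ± 23.7 and 33.4 ± 3.70. Masp1 (chr16:23449417-23520815, minus strand), which encodes a lectin pathway protease, fell in Kupffer. In Kupffer it had 17.85, 25.84 and 24.07 FPKM in Sham and 11.26, 5.937 and 6.550 after BDL, and it fell by 1.44 ± 0.26 (adjusted p = 0.0451, limma). At an offset of 0.1 and without the filter the call was lost (adjusted p = 0.0512 and 0.205). Its groups overlapped in both other cell types, with a difference of -0.03 in MPH and of 0.04 in BECs. Without Kupffer Sham 1, Sham 2, Sham 3 or BDL 2 its adjusted p was 0.119, 0.211, 0.193 and 0.12, and without BDL 1 and BDL 3 it was 0.0259 and 0.0356. Sinusoidal endothelial markers were lower after BDL in Kupffer, with a sum of 1217 to 1488 FPKM in Sham and 315.9 to 865.5 after BDL and 4 of 7 called. They were also lower in BECs, from a lower level, with a sum of 74.46 to 109.8 in Sham and 22.30 to 25.62 after BDL and 7 of 7 called. Their part was not tested.

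Of the terminal pathway, C8g passed in 2 cell types and the other 5 genes in none. C8g (chr2:25498651-25501719, minus strand) had 452.6, 575.8 and 727.6 FPKM in MPH Sham and 146.4, 151.7 and 92.68 after BDL, and it fell by 2.17 ± 0.32 (adjusted p = 0.0342, limma). In BECs it had 8.635, 4.663 and 11.14 in Sham and 2.413, 1.505 and 1.075 after BDL, and it fell by 1.74 ± 0.32 (adjusted p = 0.0277, limma). Neither pair of groups overlapped, whereas in Kupffer they did (6.314, 6.284 and 4.305 against 3.631, 7.964 and 9.980). The other C8 chains did not pass in MPH. There C8a overlapped (131.5, 89.73 and 468.4 against 219.2, 139.7 and 50.64). C8b was lower without overlap, with 135.4, 135.7 and 496.9 against 113.2, 98.07 and 105.4 (-0.98, adjusted p = 0.311, limma). The call of C8g in MPH was lost without each library in turn (adjusted p 0.0584 to 0.167, log2 differences -2.34 to -1.94), on the common FPKM sum (0.0562) and without the filter (0.0946). In BECs it held without Sham 2 (0.0247) and BDL 3 (0.0425) and was lost without Sham 1 (0.107), Sham 3 (0.0616), BDL 1 (0.0515) and BDL 2 (0.0791), and without the filter (0.0985).

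All 6 terminal genes had negative differences in BECs, 4 without overlap, but C8g alone passed. C8b had 9.676, 3.801 and 2.733 FPKM in BECs Sham and 1.244, 0.4952 and 0.1146 after BDL (-1.89, adjusted p = 0.0512, limma), and C8a, Hc (the gene of C5) and C9 differed by -1.93, -1.46 and -1.50. In Kupffer all 6 differences were positive, from 0.09 for C6 to 1.44 for C8a, with overlap and without a call. C6 showed the pull of 1 library: it had 281.6, 259.3 and 24.87 FPKM in the Kupffer BDL libraries, and without BDL 3 it passed with a difference of 1.22 (adjusted p = 0.0095).

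The inhibitor C4bp, which holds C4b in check in plasma, fell in BECs, and its difference in MPH was positive without a call. C4bp (chr1:130634773-130661632, minus strand) had 24.59, 30.29 and 14.42 FPKM in BECs Sham and 4.087, 7.189 and 2.868 after BDL, and it fell by 2.09 ± 0.35 (adjusted p = 0.0248, limma). In MPH it had 54.85, 89.68 and 158.1 in Sham and 153.3, 179.7 and 316.6 after BDL (1.15, adjusted p = 0.204), and the groups overlapped. In Kupffer it had 0.9215, 0.6399 and 0.4187 in Sham and 2.797, 13.01 and 3.055 after BDL (1.86, adjusted p = 0.0985), without overlap. There C4bp reached 1 FPKM in its BDL libraries alone and had to be higher after BDL to be tested. That difference is therefore a description. The difference between the responses of MPH and BECs was 3.24 ± 0.62 (adjusted p = 0.0341, limma). The call in BECs held without Sham 3, BDL 2 and BDL 3 (0.0382, 0.0305 and 0.0326) and was lost without Sham 1, Sham 2 and BDL 1 (0.0974, 0.0656 and 0.071) and without the filter (0.0849). Serping1, the inhibitor of C1 and the MASP proteases, had 21.25, 17.86 and 10.08 FPKM in Kupffer Sham and 49.31, 71.85 and 32.64 after BDL (1.58, adjusted p = 0.0721), while its BECs and MPH groups overlapped. Cfi, the protease that destroys C3b and C4b, was 4.66 ± 1.01 FPKM in Kupffer Sham and 17.0 ± 14.0 after BDL (SD, n = 3). The surface shield Cd59a was lower after BDL in all 3 cell types without overlap and without a call, by -0.52 in MPH, -0.89 in BECs and -0.98 in Kupffer.

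C3 did not pass in any cell type. In MPH it had 2267, 2377 and 3323 FPKM in Sham and 7007, 5165 and 3445 after BDL, without overlap (0.93, adjusted p = 0.207, limma). In Kupffer it had 87.92, 76.06 and 75.87 in Sham and 160.6, 425.6 and 337.4 after BDL, also without overlap (1.82, adjusted p = 0.0545). In BECs the groups overlapped (526.0, 551.7 and 798.1 against 764.0, 747.6 and 543.5), with a difference of 0.14 and a 95% interval of -0.42 to 0.70. In Kupffer C3 passed without BDL 1 (2.23, adjusted p = 0.0192) and without BDL 3 (1.70, 0.0469). Cfb, the alternative pathway protease, stayed at 5.136 FPKM or less in all libraries. Its exon bases are shared to 79.5% with the gene model Gm20547, as are 46.9% of those of C2 with that model or an opposite gene, and Gm20547 is listed at 0 in every library, so the levels of both are uncertain. Cfd (adipsin), the protease that activates factor B and a gene of fat cells, was at or below 1.112 FPKM in 16 libraries. It had 4.873 in BECs BDL 2 and 236.8 in BECs BDL 3. The fat cell genes Adipoq, Plin1, Retn and Cidec were chosen after the values were seen. Adipoq had 1.508 and 10.35 in these libraries and at most 0.1266 in the others. Plin1 had 0.5068 and 3.932, Retn 0.3817 and 10.47, and Cidec 0.3248 and 13.44. Retn had 0.3312 in BECs Sham 3, and Cidec was highest in MPH BDL 3 (83.84), where Cfd had 1.112. The part of fat cells was not tested.

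The 3 C1q chains, encoded by C1qa, C1qb and C1qc, varied together. In FPKM, which is per length, the ratio of C1qb to C1qa was 0.975 to 1.40 and that of C1qc to C1qa 0.410 to 0.797 over 18 libraries whose C1q sum ran from 175.8 to 8725. In Kupffer C1qa had 1418, 1394 and 1519 FPKM in Sham and 3530, 2281 and 399.2 after BDL, C1qb 1383, 1389 and 1525 against 3566, 2728 and 504.1, and C1qc 719.5, 738.0 and 757.5 against 1629, 1473 and 231.6. For each chain BDL 1 and 2 lay above and BDL 3 below all Sham libraries, and no chain passed (0.03, 0.25 and 0.16, adjusted p = 0.984, 0.869 and 0.924, limma). Without Kupffer BDL 3, when 1147 of 12364 genes were called higher and 1125 lower (18.4% in all, against 3.88% with all libraries), 14 complement genes rose and Masp1 fell. Among those that rose were C1qa (0.98, adjusted p = 0.0364), C1qb (1.12, 0.0145), C1qc (1.07, 0.00863), properdin Cfp (0.99, 0.0392) and C4b (1.39, 0.0173). The others were C1s1, C2, C3, C6, Serping1, C3ar1, C5ar1, Itgam and Itgb2.

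C1q in the other preparations was read beside macrophage markers. In MPH C1qa had 1833, 797.3 and 381.9 FPKM in Sham and 763.4, 1040 and 403.8 after BDL, and C1qb 1847, 839.0 and 395.1 against 862.7, 1187 and 564.1, with overlap. No C1q chain differed between MPH and Kupffer in Sham by the test (-0.81, -0.75 and -0.71, adjusted p = 0.203, 0.233 and 0.239, limma; the 95% interval of C1qa was -1.96 to 0.34), but all 3 were called lower in MPH without MPH Sham 1, on the common FPKM sum and on recovered reads. The C1q sum was 0.740 to 1.46 times the sum of the 8 Kupffer cell markers in MPH and 0.644 to 0.994 times in Kupffer, but 4.55 to 5.39 times in BECs Sham and 9.31 to 11.3 times in BECs BDL, without overlap. In BECs C1qa had 75.93, 69.06 and 135.1 FPKM in Sham and 243.3, 251.5 and 79.94 after BDL, C1qb 82.90, 74.58 and 151.4 against 284.4, 267.5 and 92.41, and C1qc 33.56, 32.19 and 59.15 against 102.3, 103.2 and 34.42. Without BECs BDL 3, when 7.84% of all genes were called, all 3 chains passed, with rises of 1.46, 1.49 and 1.34 for C1qa, C1qb and C1qc (adjusted p = 0.0408, 0.0425 and 0.0412), as did Itgax (1.03, adjusted p = 0.0408).

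**Figure D4:**
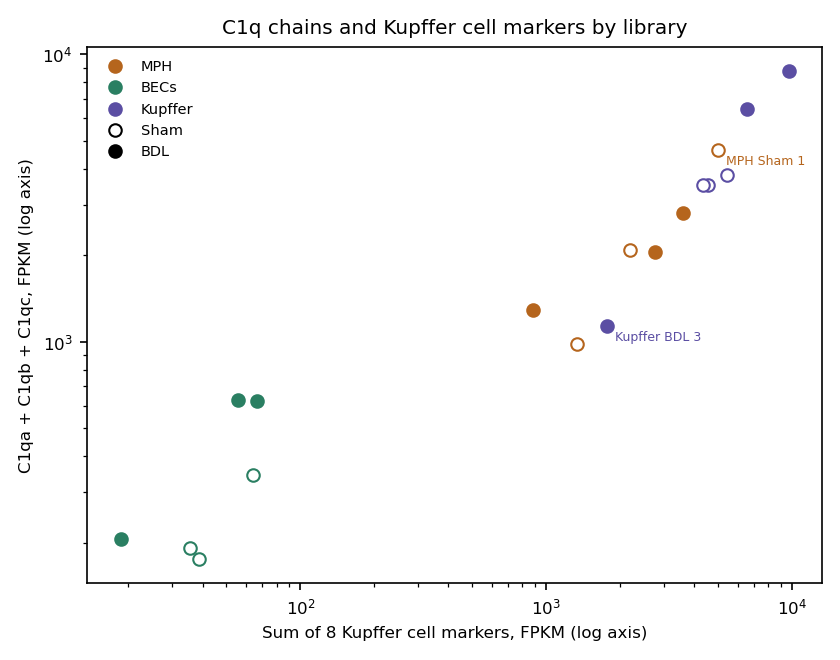
Sum of the 3 C1q chains (FPKM, log axis) against the sum of 8 Kupffer cell markers (FPKM, log axis), 1 point per library, open for Sham and filled for BDL. MPH and Kupffer libraries lie on one band with ratios of 0.644 to 1.46, and the BECs libraries lie above it, at 4.55 to 5.39 in Sham and 9.31 to 11.3 after BDL.

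The remaining classical genes did not pass in any cell type. C4b, the mouse C4, had 339.9, 246.3 and 434.1 FPKM in MPH Sham and 685.2, 574.1 and 498.3 after BDL, without overlap (0.81, adjusted p = 0.187, limma), and it has a near-identical copy, C4a, between which the authors' counting may split reads. C1s1, the C1s protease, had 8.340, 5.947 and 4.124 FPKM in Kupffer Sham and 14.19, 28.27 and 19.58 after BDL, without overlap (1.59, adjusted p = 0.051), and passed without BDL 1 (1.82, adjusted p = 0.0476) or BDL 3 (1.61, 0.042). C1ra, the C1r protease, had 31.56, 37.38 and 42.77 in BECs Sham and 25.49, 17.61 and 23.57 after BDL, without overlap (-0.72, adjusted p = 0.0631).

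Hepatocyte markers were lower after BDL in BECs and had positive differences in Kupffer. In BECs the secreted genes at 1.39% to 3.82% of the MPH level all had negative differences. C3, Cfb, Cfp, Masp1 and the C1q chains had positive differences there. Of these, C3 (23.5%), Cfb (31.3%) and Masp1 (36.6%) had shares above every hepatocyte marker. Cfp and the C1q chains had higher means in Kupffer Sham than in MPH Sham. Masp1, which fell in Kupffer, was at 92.3% of its MPH level in Kupffer Sham. In BECs the sum of the 10 markers was 1552 to 3745 FPKM in Sham and 178.9 to 688.6 after BDL. All 10 had lower values without overlap, with a median of -2.28, and 1 passed. Sinusoidal endothelial markers were lower in BECs as well, with 7 of 7 called and a median of -1.65. The 4 secreted genes that were called lower and had BECs shares in the range of the hepatocyte markers or below it (Mbl1, Mbl2, Masp2 and C8g) had differences of -2.69 to -1.05, and C4bp, at 22.9% of its MPH level, fell by 2.09. In Kupffer the hepatocyte sum was 463.8 to 1022 in Sham and 1180 to 3937 after BDL, with all 10 markers positive, a median of 2.02 and 0 called (7 with an unadjusted p under 0.05). In Kupffer Sham 10 complement genes had shares of MPH within the range of the hepatocyte markers or below it. The lowest were Mbl2, C4bp and Masp2 (0.642%, 0.654% and 0.806%), and the others were Mbl1, Hc, C8a, C8b, C8g, C9 and Cfi. Mbl2 and these others had positive differences in Kupffer without a call. C4bp could be tested only if higher after BDL, and Masp2 was too low to test. Whether hepatocyte RNA in these preparations accounts for any complement change was not tested.

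**Figure D5:**
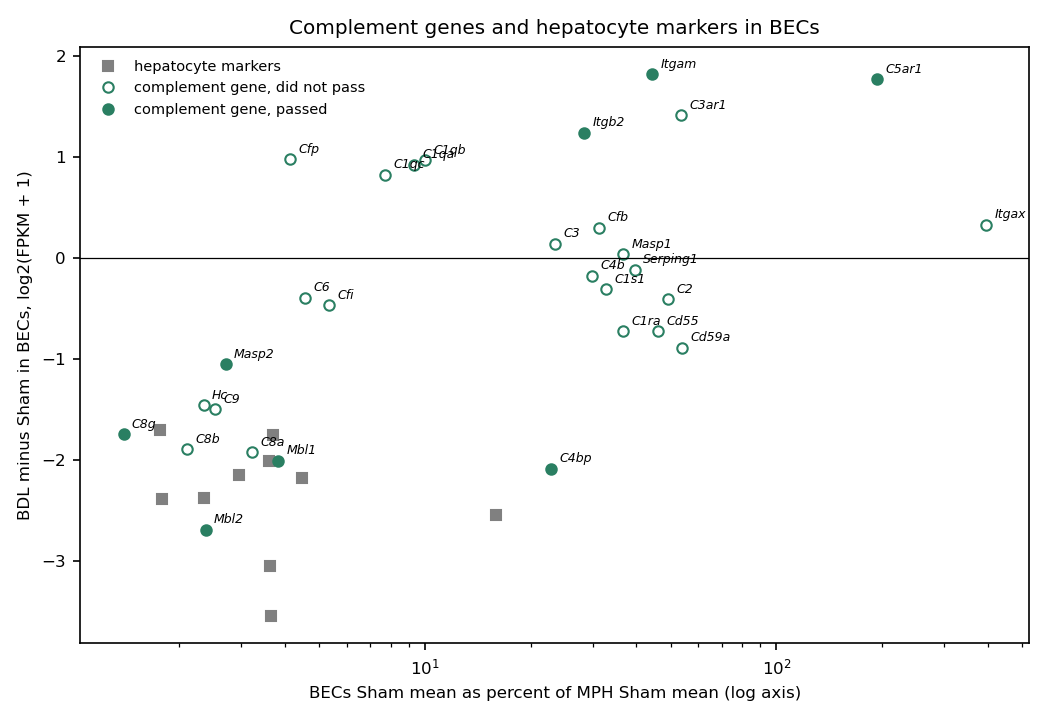
Complement genes (green; filled if they passed) and 10 hepatocyte markers (grey squares) in BECs: the Sham level as a percent of the MPH Sham level (log axis) against the difference between BDL and Sham in log2(FPKM + 1). The 8 secreted genes at 1.39% to 3.82% of the MPH level lie between -2.69 and -1.05, and Masp2 (-1.05) could be tested only if lower. Secreted genes at 4.13% to 10.0%, also within the marker range, did not pass. Of these, Cfp and the C1q chains lie above 0 and C6 and Cfi below. Cfp and the C1q chains were at 137% to 149% of the MPH level in Kupffer Sham and C6 at 93.5%. For these genes the percent of MPH is therefore not a share of a hepatocyte level. The hepatocyte markers lie between -3.54 and -1.70, C4bp lies apart at 22.9%, and the receptors C5ar1, Itgam and Itgb2 lie above 0.

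Tests of the difference between cell types called 8 response gaps, 2 of them in genes too low to test in 1 of the cell types. For MPH minus BECs, 1 of 32 genes was higher (C4bp) and 0 lower, against 0.886% and 0.717% of 14780 genes. For BECs minus Kupffer, 2 of 31 were higher and 5 lower, against 1.34% and 2.15% of 14874 genes. Mbl1 (-2.99, adjusted p = 0.0295), Mbl2 (-2.97, 0.0439), Masp2 (-1.56, 0.0288), C4bp (-3.95, 0.0213) and C1s1 (-1.91, 0.0328) had the lower response in BECs, and Masp1 (1.47, 0.0484) and C5ar2 (1.03, 0.044) the higher one. C5ar2 was too low to test in BECs, at 1 FPKM or more in 1 of 6 libraries, and Masp2 too low in Kupffer, at 1 FPKM or more in 2 of 6. The values of these 2 genes are given as a description and show no difference in response. With a common FPKM sum or recovered reads this split was 4 higher and 4 lower, with the median of all genes at 0.29 and 0.20. For MPH minus Kupffer, limma called 0 of 31 (0.0426% of 14101 genes higher, 0.362% lower), with 6 at an unadjusted p under 0.05. With the replicate block that pairs MPH and Kupffer libraries of the same number in the labels, 3 were lower in MPH: C8g (-2.24, adjusted p = 0.0302), Mbl2 (-1.71, 0.0402) and Mbl1 (-1.79, 0.0459). Under the block 82 genes were called higher and 386 lower (3.32% in all, against 0.404% without it). Without 1 library the MPH minus Kupffer calls were 0, except 1 without Kupffer BDL 1 and 1 without Kupffer BDL 3 (C8g in both, with 0.143% and 2.74% of all genes called). The BECs minus Kupffer calls were 0 without BECs Sham 1, Kupffer Sham 2 or Kupffer Sham 3 (limma; 17, 17 and 16 at an unadjusted p under 0.05). They numbered 5, 3, 5, 1 and 4 without BECs Sham 2, BECs Sham 3 and BECs BDL 1, 2 and 3, and 4, 11, 2 and 12 without Kupffer Sham 1 and Kupffer BDL 1, 2 and 3, with 4.97% and 12.1% of all genes called without Kupffer BDL 1 and BDL 3. Of the 12 fits without 1 library, the call held in 9 for C4bp, 7 for Masp2, 6 for Mbl1, 4 for Mbl2, 4 for C1s1, 3 for C5ar2 and 2 for Masp1. The C4bp gap between MPH and BECs was lost without MPH Sham 1 or 2, MPH BDL 2 or 3, BECs Sham 1 or 2, or BECs BDL 1 or 3, with adjusted p up to 0.0948.

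Further complement genes outside the 32, a list of 29, were called in BECs and MPH. In BECs, where 2.96% of all genes were called higher and 4.70% lower, 0 rose and 6 fell of 20 tested: Cfhr2 (-2.55), Vtn (-2.74), Cpn1 (-2.19), Colec11 (-1.76), Apcs (-1.46) and Crp (-1.24). Vtn, which blocks pore assembly, had 136.4, 80.32 and 117.8 FPKM in BECs Sham and 25.03, 16.14 and 8.910 after BDL. In Kupffer 0 of 20 passed (limma; 9 with an unadjusted p under 0.05; 1.47% and 2.40% of all genes called higher and lower), and in MPH 1 of 22 fell, Cd59b (-1.48; 0.860% of all genes called lower). Of 25 regulators and cytokines, 24 tested in each cell type, Osm (1.54) and Il6 (2.88), both signals that drive acute-phase genes, rose in MPH. In BECs 5 rose and 1 fell, and those that rose included Osm (2.46), Il1b (2.00), Il6 (1.14) and Il6ra (0.65). In Kupffer 1 rose, Stat3 (0.81), and 1 fell. Both lists were fitted with all libraries of a cell type, and leaving out single libraries was not run for them.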

How the data were processed

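Polyadenylated RNA of MPH, BECs and Kupffer-like cells was, per the labels' protocols, extracted with TRIzol and turned into libraries by the kit VAHTS Universal V6. Per the submitters' processing notes, the tools were CASAVA 1.8, fastp, HISAT2 2.0.5, featureCounts 1.5.0-p3 and DESeq2 1.20.0, with GRCm38 (mm10). The deposited table holds FPKM values that the authors computed, 1 column per library. For the annotation release, strandedness and counting of shared bases, details were not given in the sources used here. Hepatic stellate cells were not analysed here.

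Whole reads were recovered from FPKM and GENCODE M21 exon lengths: 53002 of 53636 genes with a length (98.8%) came out whole in all libraries within 0.02 reads, and per library 97.4% to 98.4% of values below 200 reads. They served for depth (15451625 to 20577889 reads in genes) and 1 scaling alternative. No 2 libraries of a group agreed within read sampling (chi-square per degree of freedom 20.6 to 271.1), so each was counted as 1 sample.

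Values were tested as log2(FPKM + 1), so fold changes of low genes are understated. A gene was tested if 3 or more of the compared libraries had an FPKM of 1 or higher, using limma 3.58.1 in R 4.3.3 (lmFit, then eBayes, trend and robust both on; 2-sided), fitted over the whole table with Benjamini-Hochberg adjustment and a threshold of 0.05. Each comparison of BDL with Sham used 6 libraries, the cell types were compared over 9 Sham libraries, and responses by an interaction over 12 libraries. On simulated data, 4-fold changes were recovered in 67% (MPH), 87% (BECs) and 81% (Kupffer) of cases and 2-fold changes in 13%, 48% and 57%, on 11859, 13033 and 12301 genes. The changes were placed only on genes with a mean Sham log2(FPKM + 1) above 3, so these rates do not cover lower genes. Named genes are all members, with full values for those called and for the 3 most abundant per cell type. Some results of the list of regulators are not reported here. The members, marker lists and gene lists were chosen with earlier results of these data known. The alternatives were an offset of 0.1, no filter, a common FPKM sum, recovered reads, all 18 libraries in 1 model, a replicate block and leaving out each library.

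Some MPH and Kupffer libraries share a number in their labels. The 3 pairs that do had correlated deviations from their group means (0.213, 0.324 and 0.299 over 15594 genes), while pairs of other numbers ran from -0.32 to 0.208. By the rule that each pair exceed 0.1 the numbers were taken as pairing them, though the lowest lies close to the highest of the other pairs. Python 3.11.15 with pandas 2.3.3 handled the tables, and promoters came from RefSeq (GRCm38.p6).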

Additional observations from a re-analysis of the deposited data

Results flagged for a closer look

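In 8 cases a test of the difference itself (limma interaction, log2 scale) called the response of a complement gene to BDL different in 2 cell types, and in none did the call hold in all 12 fits without 1 library. C4bp differed by 3.24 between MPH and BECs (adjusted p = 0.0341), where all 3 BECs libraries after BDL lay below all BECs Sham libraries and the MPH groups overlapped. Between BECs and Kupffer the differences were -3.95 for C4bp (0.0213), -2.99 for Mbl1 (0.0295), -2.97 for Mbl2 (0.0439), -1.91 for C1s1 (0.0328), -1.56 for Masp2 (0.0288), 1.47 for Masp1 (0.0484) and 1.03 for C5ar2 (0.044). The calls held in 9 of those fits for C4bp, 7 for Masp2, 6 for Mbl1, 4 for Mbl2, 4 for C1s1, 3 for C5ar2 and 2 for Masp1, and in 4 for C4bp between MPH and BECs. At an offset of 0.1, Masp1, C5ar2 and Mbl2 lost their calls. C5ar2 in BECs and Masp2 in Kupffer were too low to test in that cell type alone and entered through the other, so their 2 values are a description and show no difference in response.

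Hepatocyte markers moved in opposite directions in the 2 preparations, from 1552 to 3745 to 178.9 to 688.6 FPKM in BECs and from 463.8 to 1022 to 1180 to 3937 in Kupffer. Their part in the gaps of Mbl1, Mbl2, Masp2, C1s1 and C4bp was not tested.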

How the results depend on the processing

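Counts of complement genes past the threshold depended on the filter and on single libraries. Between BDL and Sham, MPH had 1, with 0 without a filter, 0 on a common FPKM sum, 4 with all 18 libraries in 1 model and 0 to 0 when 1 library was left out. BECs had 8, with 5 at an offset of 0.1, 1 without a filter and 1 to 11 with 1 library left out. Kupffer had 2, with 1 at an offset of 0.1, 0 without a filter, 7 with all 18 libraries and 0 to 15 with 1 library left out. Without a filter 26526, 33336 and 38269 genes were tested in MPH, BECs and Kupffer, with 8, 17 and 12 members at an unadjusted p under 0.05. In Sham, MPH against BECs had 29, with 19 on a common FPKM sum and 27 to 31 with 1 library left out. MPH against Kupffer had 24 (22 to 29) and BECs against Kupffer 20 (17 to 21). For the response differences, MPH minus BECs had 1, with 0 without a filter and 0 to 1 with 1 library left out, MPH minus Kupffer 0, with 3 under the replicate block and 0 to 1, and BECs minus Kupffer 7, with 0 without a filter and 0 to 12. The replicate block gave 29, 25 and 20 in the Sham comparisons and ended no call there. On a common FPKM sum, 4 directions reversed: Cd59a (-0.24) and C2 (-0.15) for MPH against BECs, and C2 (-0.16) and Cfb (-0.012) for MPH against Kupffer. The cause of these changes was not tested. With 3 libraries a group, 2-fold changes were recovered in 13% of simulated cases in MPH, so a gene that did not pass there may still differ.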
